A study of Mus musculus with 19 samples.

Results

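Acetyl-CoA is the molecule through which pyruvate, fatty acids, ketone bodies and acetate enter the citric acid cycle, lipid synthesis and protein acetylation. The 40 genes described here encode the enzymes and carriers that make it, move it between compartments and use it up. They were taken as a list of symbols, not by their values, from a table of 32694 gene symbols, and all 40 passed the filter on low values that left 18445 genes for testing. By role the list holds 4 synthetases, 3 genes of the citrate route, 2 subunits of the mitochondrial pyruvate carrier, 5 subunits of the pyruvate dehydrogenase complex, 4 kinases and 2 phosphatases of that complex, 2 acetyl-CoA carboxylases with malonyl-CoA decarboxylase, 6 thiolases and ketone body enzymes, carnitine acetyltransferase with the acetyl-CoA transporter of the endoplasmic reticulum, and 9 acyl-CoA thioesterases.

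RNA was measured in colon of mice aged 12 weeks, with 1 library per mouse. Wild-type colon came from 5 mice, 3 female (replicates 1 to 3) and 2 male (replicates 4 and 5). The Apc group holds single colon tumours from 7 mice heterozygous for Apc, the suppressor of Wnt signalling, of which replicates 1 to 3 were female and 4 to 7 male. The Apc/Tgif group holds single tumours from 7 mice with the same Apc genotype whose label adds null alleles of Tgif1 and Tgif2, related homeodomain repressors of transcription, again with replicates 1 to 3 female and 4 to 7 male. All deletions were made with Villin-Cre, a recombinase driven by a promoter of the intestinal epithelium, so the other cells of a tumour kept intact genes by design. Loss of 1 Apc allele was shared by both tumour groups and absent from wild-type colon. The labels give neither the strain of the mice nor the place of each tumour along the colon.

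In the colon, acetyl-CoA metabolism is tied to the gut bacteria. Colonocytes, the absorptive cells of the surface, take up bacterial butyrate and acetate and oxidise them through acetyl-CoA, while cells that divide rapidly tend to draw acetyl-CoA out of mitochondria as citrate for lipid synthesis. The pyruvate dehydrogenase complex is the gate between glycolysis and mitochondrial acetyl-CoA. It is switched off by phosphorylation through the Pdk kinases and switched on again by the Pdp phosphatases.

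Library totals ran from 34417808 to 44732717 normalized counts. Tgif1 had 251 to 654 normalized counts in the tumours labelled Apc/Tgif, against 2785 to 4965 for Apc tumours and 829 to 1181 for wild-type colon. Tgif2 went against its label, with 2141 to 3107 in the labelled nulls and 476 to 764 in Apc tumours. Apc itself overlapped between the groups, with 4168 to 7803 in wild-type colon, 4845 to 7674 in Apc tumours and 4939 to 8504 in Apc/Tgif tumours. The labels do not name the deleted exons. Reads from exons that remain would still be counted, so totals of Tgif2 and Apc check nothing. The name Apc/Tgif below therefore always means the tumours labelled so. The ribosomal transcript Rn45s exceeded 1000000 in wild-type replicates 2 and 4 and Apc/Tgif tumour 5. Apc tumours 2 and 3, both female, were the closest pair of their group but differed by more than sampling noise and were counted as 2 mice. Hoxb13, a marker of the distal colon, lay between 1088 and 1542 in Apc tumours 1, 4 and 7 and between 5271 and 9351 in the other 4. It lay between 6540 and 8720 in all 7 Apc/Tgif tumours and between 13466 and 16616 in wild-type colon. What part tumour position had in the differences between the groups was not tested.

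The sequences before the start sites of 3 members are shown as examples of the 11 that differed between the tumour genotypes, Acss2 and Mlycd upward and Pdk3 downward in Apc/Tgif tumours, and because Tgif proteins bind DNA. Each stretch runs 5′ to 3′ on the gene's strand, comes from the RefSeq promoter windows of GRCm38.p6 (250 bases before to 50 after the start) and stops before the first annotated exon. Capitals mark every match to CTGTCA, the core motif bound by Tgif proteins, CCAAT, the E-box CACGTG or the sterol regulatory element TCACNCCAC, on either strand. The Acss2 stretch lies at chr2:155517793-155517947, plus strand, that of Mlycd at chr8:119394644-119394877, plus strand, and that of Pdk3 at chrX:93832202-93832400, minus strand.
Acss2: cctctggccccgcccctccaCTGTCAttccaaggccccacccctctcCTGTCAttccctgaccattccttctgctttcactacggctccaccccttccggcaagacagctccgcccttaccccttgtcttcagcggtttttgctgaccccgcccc
Mlycd: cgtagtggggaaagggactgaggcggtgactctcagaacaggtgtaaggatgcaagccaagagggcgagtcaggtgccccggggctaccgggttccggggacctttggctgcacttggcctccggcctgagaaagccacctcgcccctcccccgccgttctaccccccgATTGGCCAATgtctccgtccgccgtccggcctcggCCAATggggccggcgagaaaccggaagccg
Pdk3: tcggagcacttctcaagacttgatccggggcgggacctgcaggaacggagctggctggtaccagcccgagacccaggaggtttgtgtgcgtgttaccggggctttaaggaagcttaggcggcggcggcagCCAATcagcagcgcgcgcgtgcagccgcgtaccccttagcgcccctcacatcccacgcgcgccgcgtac
The Acss2 stretch held CTGTCA at positions -230 and -203 from the start site and no other motif searched, while the window beyond it held a CCAAT match on the other strand at -73. That of Mlycd held CCAAT at -76 and -46 and its reverse complement at -81, and that of Pdk3 held a single CCAAT at -120. Among the 34 members with a RefSeq window, CTGTCA occurred in 10 (29.4%), against 19.2% of all 32851 windows of this length. CCAAT occurred in 23 members (67.6%) against 37.4% of windows, CACGTG in 5 (14.7%) against 7.15%, and TCACNCCAC in none against 1.24%. Matches of so short a motif are frequent, and these counts describe letters only. Of the 11 members that differed between genotypes, Acacb (at -15) and Acot4 (at 18), both lower in Apc/Tgif tumours, also held CTGTCA in their windows, on the other strand. Acss3 and Acat1, also among the 11, had no RefSeq window and were not searched. CTGTCA was added to the search after the expression values had been seen.

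Most members were lower in tumours of either genotype than in wild-type colon. In Apc tumours 24 of 40 members were lower and 6 higher (75% called), where 25.2% of all genes tested were lower, 23.9% higher and 49.1% called either way. The median log2 fold change of the members was -0.40, against -0.01 over all genes. In Apc/Tgif tumours 22 members were lower and 6 higher (70% called), where 25.5% of all genes were lower, 24.8% higher and 50.3% called either way, and the median was -0.38 against 0.00. A log2 fold change of 1 is a doubling, and a member is called where the limma p adjusted over all genes lies under 0.05. The 6 higher members of each tumour group include Acat3 and Acot12, which the filter kept through their level in tumours. The genotypes differed in fewer members. Between Apc/Tgif and Apc tumours 5 members were higher and 6 lower (27.5% called), where 7.88% of all genes were higher, 8.76% lower and 16.6% called either way, and the members' median was 0.00. In both comparisons of Apc/Tgif tumours the lower members include Bdh2, which the filter kept through its level in the other groups. The 2 comparisons with wild-type colon share its 5 libraries, so their likeness is not independent. In bulk tissue, fewer cells of a type and less RNA per cell cannot be told apart.

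**Figure D1:**
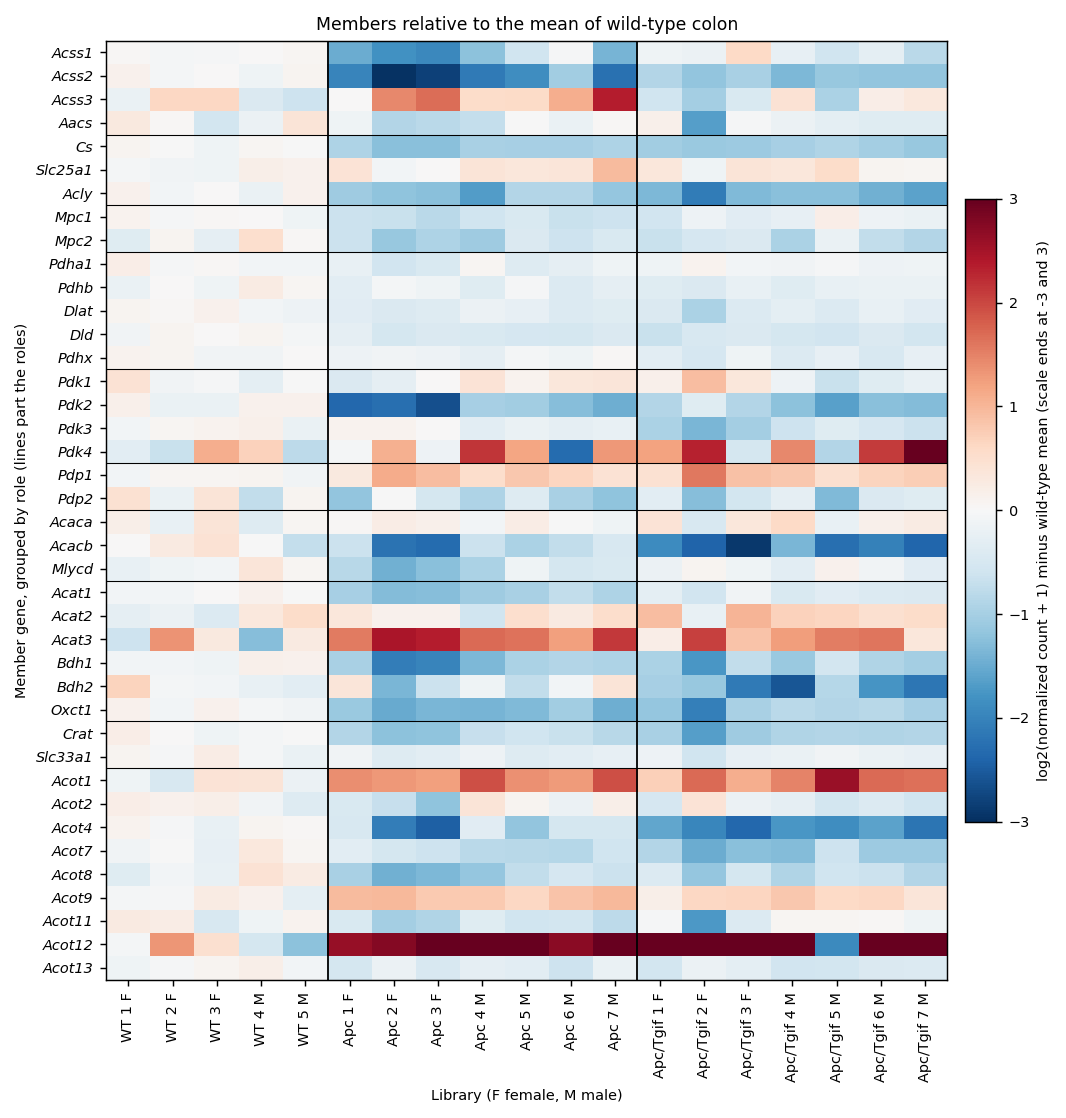
Each row is 1 of the 40 members, grouped by role, and each column 1 of the 19 libraries. Colour gives log2(normalized count + 1) minus the wild-type mean, from blue (lower) to red (higher), with the scale ending at -3 and 3. Acot1 and Pdp1 are among the members red in all 14 tumours, and Acss2, Cs, Acly, Pdk2, Bdh1, Oxct1 and Crat are among those blue in all 14.

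**Figure D2:**
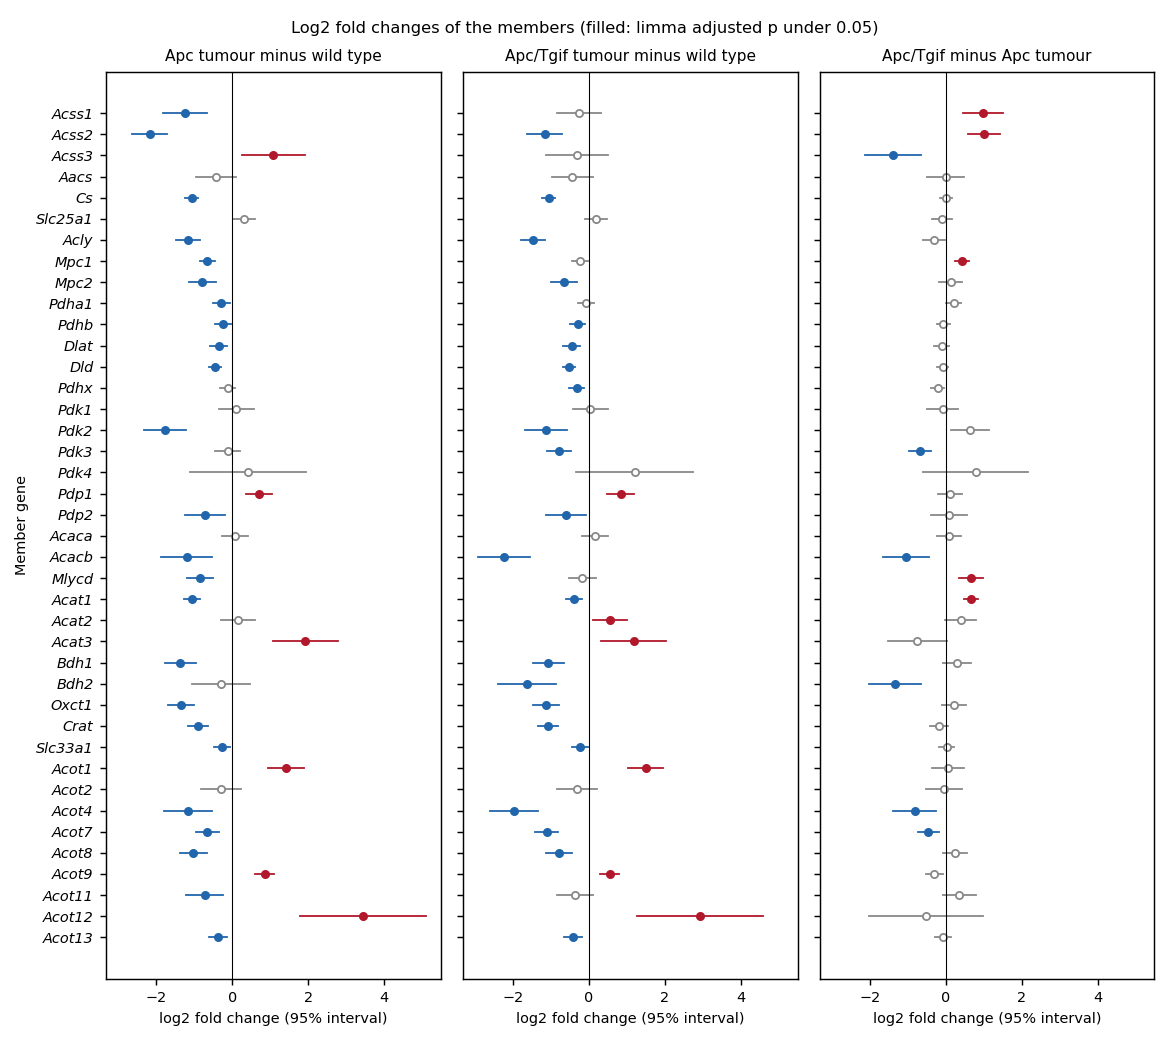
Log2 fold changes of the 40 members with 95% intervals in the 3 comparisons, on 1 shared axis. Filled points passed the limma threshold, blue for lower and red for higher, and 11 members are filled in the right-hand panel.

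The count of lower members depended on the scaling. With library totals made equal, it was 17 in Apc and 15 in Apc/Tgif tumours, and centred on 10 pan-epithelial genes it was 15 in both. Equal totals raised the median of all genes to 0.19 and 0.15 and the share of higher among called genes from 48.8% to 64.5% and from 49.3% to 60.4%. Centring raised those medians to 0.27 and 0.24 and those shares to 68.3% and 64.7%. The members' medians stayed below zero under both, at -0.20 and -0.23 with equal totals and at -0.12 and -0.14 with centring. Between the tumour genotypes equal totals gave 5 higher and 7 lower members, while the share of higher among called genes went from 47.4% to 36.9%, or to 38.3% with centring.

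Marker genes of muscle, nerve, fat and colonocytes were much higher in wild-type colon than in the tumours, and those of stem cells and neutrophils lower. All 10 smooth muscle markers were lower in both tumour groups, with sums of 206708 to 306998 in wild-type colon, 13463 to 23086 in Apc tumours and 10316 to 19207 in Apc/Tgif tumours. All 6 tested adipocyte markers of 10 listed were lower, and Lep was at 0 in all 14 tumours. Adipoq was 268.8, 76.5, 832.5, 1.44 and 103.7 in wild-type replicates 1 to 5 and at most 1.71 in any tumour. In wild-type replicate 4 the listed markers Adipoq, Plin1, Retn, Lep and Cfd were each at most 5.75. Sums of all 10 adipocyte markers were nevertheless 5722 to 16150 in wild-type colon, replicate 4 included. They were 1058 to 2651 in Apc and 1131 to 2740 in Apc/Tgif tumours. Replicate 4 was thus low in part of the list only. It had the lowest wild-type values of Acss2 (5214) and Acly (19622), against wild-type means of 5696 and 22502. Its Acacb value (619) stood against a mean of 644. This is 1 library, and the part of fat in these members was not tested. Colonocyte markers were lower in 9 of 10 cases in each tumour group, with sums of 296887 to 410793 in wild-type colon, 26539 to 94392 in Apc tumours and 12641 to 45184 in Apc/Tgif tumours. All 10 stem and crypt base markers and all 6 neutrophil markers were higher in both tumour groups, with neutrophil sums of 148 to 195 in wild-type colon, 6242 to 12891 in Apc tumours and 1860 to 15199 in Apc/Tgif tumours. Goblet cell markers were lower in 7 and 10 of 10 cases in Apc and Apc/Tgif tumours, B and plasma cell markers in 8 of 8 in both, and Paneth cell markers higher in 6 of 7 in both. Pan-epithelial markers were lower in 6 and 5 of 10 cases, with median log2 fold changes of -0.43 in both, close to the members' -0.40 and -0.38. The part of these cell types in the differences from wild-type colon was not tested.

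Among the synthetases, Acss1 and Acss2, which attach acetate to coenzyme A in mitochondria and in cytosol and nucleus, were lowest in Apc tumours and higher in Apc/Tgif tumours. Acss2 (chromosome 2, 155517948 to 155585724, GRCm38 with GENCODE annotation, as for all positions here) had 6177, 5416, 5699, 5214 and 5976 normalized counts in wild-type replicates 1 to 5. It ran from 732 to 2777 with a median of 1305 in Apc tumours and from 2218 to 3109 with a median of 2507 in Apc/Tgif tumours. Every tumour lay below every wild-type colon, and 6 of 7 Apc tumours lay below all Apc/Tgif tumours, the exception being Apc tumour 6. The log2 fold change was -2.18 (SE 0.22, limma adjusted p = 2e-07) in Apc tumours, -1.16 (SE 0.22, limma adjusted p = 0.000217) in Apc/Tgif tumours and 1.02 (SE 0.20, limma adjusted p = 0.00172) between them. In males alone the last was 0.60 (limma adjusted p = 0.0908), and without Apc tumours 2 and 3 it was 0.70 (limma adjusted p = 0.00734).

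Acss1 (chromosome 2, 150618105 to 150668500) was steady across wild-type colon at 3022, 2854, 2859, 2969 and 3059. Apc tumours ran from 771 to 2868 with a median of 1125, and Apc/Tgif tumours from 1682 to 4492 with a median of 2471. The tumour genotypes overlapped. Of the Apc tumours only tumour 6 reached the wild-type range, and Apc/Tgif tumour 3 lay above it. The log2 fold change was -1.24 (SE 0.27, limma adjusted p = 0.000963) in Apc tumours, -0.26 (SE 0.27, limma adjusted p = 0.454) in Apc/Tgif tumours and 0.98 (SE 0.25, limma adjusted p = 0.00977) between genotypes. The last call was lost without Apc tumours 2 and 3 (0.69, limma adjusted p = 0.0695) and in males alone (0.33, limma adjusted p = 0.425). That in Apc tumours was lost in males alone (-0.85, limma adjusted p = 0.0669).

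The third synthetase, Acss3 (chromosome 10, 106933517 to 107123668), a mitochondrial enzyme that prefers propionate, went the other way at a far lower level. It had 42.3, 75.6, 75.6, 36.1 and 31.7 in wild-type colon, from 49.6 to 253 with a median of 104 in Apc tumours and from 23.4 to 66.0 with a median of 35.4 in Apc/Tgif tumours. The 3 groups overlapped. Its fold changes on the log2 scale were 1.09 (SE 0.39, limma adjusted p = 0.0271) in Apc tumours, -0.31 (SE 0.39, limma adjusted p = 0.53) in Apc/Tgif tumours and -1.40 (SE 0.35, limma adjusted p = 0.00996) between genotypes. That between genotypes was not called without Apc tumours 2 and 3 (-1.15, limma adjusted p = 0.0611), in males alone (-1.14, limma adjusted p = 0.0955) or with array quality weights (-0.99, limma adjusted p = 0.06). The rise in Apc tumours was lost in 9 of 36 alternative settings, among them leaving out wild-type replicate 1, 4 or 5 or Apc tumour 2, 3 or 7, with values of 0.89 to 1.30 when 1 library was left out. Of the stretches of 75 bases in Acss3 transcripts, 41.6% also lie antisense in transcripts of Ppfia2, and the labels do not say whether reads were assigned by strand. Aacs, which activates acetoacetate in the cytosol, had group means of 3949, 3034 and 3114 and was not called, with 95% intervals of -0.96 to 0.10 in Apc tumours and -0.48 to 0.48 between genotypes.

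The citrate route carries acetyl units out of mitochondria. Citrate synthase (Cs) makes citrate from acetyl-CoA and oxaloacetate, Slc25a1 exports it and ATP citrate lyase (Acly) cleaves it back to acetyl-CoA in the cytosol. Cs and Acly were lower in tumours of either genotype, and Slc25a1 was not called. Cs had means of 29855 ± 1667 (SD, n = 5), 14506 ± 1394 (SD, n = 7) and 14494 ± 839.8 (SD, n = 7), with no overlap between wild-type colon and tumours. Its log2 fold change was -1.06 in Apc tumours (limma adjusted p = 4.69e-09) and -1.06 in Apc/Tgif tumours (limma adjusted p = 3.64e-09). Between the genotypes the interval of the difference was -0.15 to 0.16, the narrowest but one of all members.

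Acly (chromosome 11, 100476353 to 100528000) had 24558, 21091, 22729, 19622 and 24509 in wild-type colon. It ran from 7057 to 12127 with a median of 10066 in Apc tumours and from 5259.8 to 9411 with a median of 8873 in Apc/Tgif tumours, all below the lowest wild-type value. On the log2 scale the fold changes were -1.17 (SE 0.15, limma adjusted p = 3.18e-06) and -1.48 (SE 0.15, limma adjusted p = 1.25e-07) against wild-type colon. Between genotypes it was -0.31 (SE 0.14, limma adjusted p = 0.13), with an interval of -0.60 to -0.03, and it passed only without Apc tumour 4, at -0.41. Slc25a1 had means of 3259, 4206 and 3864. Its log2 fold change of 0.30 in Apc tumours (limma adjusted p = 0.0799) passed in 6 of 37 alternative settings, among them equal totals and leaving out Apc tumour 2.

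Pyruvate enters mitochondria through a carrier made of Mpc1 and Mpc2. Both were lower in Apc tumours, and Mpc1 was higher in Apc/Tgif than in Apc tumours. Mpc1 (chromosome 17, 8282904 to 8297661) had 4657, 4288, 4474, 4432 and 3987 in wild-type colon, from 2501 to 3185 with a median of 2805 in Apc tumours and from 2949 to 4997 with a median of 3797 in Apc/Tgif tumours. No Apc tumour reached the wild-type range, and Apc/Tgif tumour 1 was the only one of its group within the Apc range. The log2 fold change was -0.65 (SE 0.10, limma adjusted p = 2.68e-05) in Apc tumours, -0.23 (SE 0.10, limma adjusted p = 0.0685) in Apc/Tgif tumours and 0.43 (SE 0.091, limma adjusted p = 0.00317) between them. The last was 0.35 in females alone (limma adjusted p = 0.0724). Mpc1 shares 13% of its 75-base stretches with the pseudogene Mpc1-ps. Mpc2 went from a mean of 2403 to 1414 in Apc and 1543 in Apc/Tgif tumours, with log2 fold changes of -0.78 and -0.65, both called, and 0.13 between genotypes, not called (interval -0.18 to 0.44). In females alone Mpc2 was not called in Apc/Tgif tumours (-0.36, limma adjusted p = 0.113).

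The subunits of the pyruvate dehydrogenase complex differed little. In Apc tumours 4 of 5 were lower, and in Apc/Tgif tumours again 4 of 5, where 25.2% and 25.5% of all genes were lower. The log2 fold changes of those called were only -0.24 to -0.45 and -0.30 to -0.52. None of the 5 was called between genotypes, where 16.6% of all genes were. With epithelial centring none of the 4 calls in Apc tumours remained (Dlat -0.07, Dld -0.16), and in Apc/Tgif tumours those of Pdhb (-0.06), Dlat (-0.21) and Pdhx (-0.09) were lost. Dlat was also lost in both groups at equal totals (-0.15 and -0.30) and in males alone (-0.19 and -0.20). Dld, the dihydrolipoyl dehydrogenase that other complexes share, went from 6489 ± 350.1 (SD, n = 5) to 4755 ± 299 and 4509.9 ± 263 (SD, n = 7 each). Dlat, the acetyltransferase core, went from 4349.6 to 3442 and 3237, with log2 fold changes of -0.35 and -0.45. Pdha1, the catalytic subunit that the kinases phosphorylate, had 11456, 9479.8 and 10862 and was called only in Apc tumours (-0.29, limma adjusted p = 0.0278). That call was lost in 11 of 37 settings, with values of -0.34 to -0.23 when 1 library was left out (limma adjusted p up to 0.0822). Wild-type replicates 1 and 3 and Apc tumours 2 and 3 each decided it. Its partner Pdhb had -0.24 in Apc tumours (limma adjusted p = 0.0441), which was lost in 20 of 37 settings and turned to 0.04 when libraries were centred on epithelial genes. When 1 library was left out it ran from -0.28 to -0.17, and wild-type replicates 2, 4 and 5, Apc tumours 1, 4, 6 and 7 and Apc/Tgif tumours 1, 6 and 7 each decided it. Pdhb shares 19.9% of its 75-base stretches with Gm6123. Pdhx, which anchors Dld to the core, was called only in Apc/Tgif tumours (-0.32, against -0.12 in Apc tumours), and the difference between genotypes was -0.21 (SE 0.085, limma adjusted p = 0.0997).

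Of the 4 kinases, Pdk2 and Pdk3 differed and Pdk1 and Pdk4 were not called in any of the 3 comparisons. Pdk2 (chromosome 11, 95026258 to 95041354) had 2419, 1902, 1888, 2381 and 2379.8 in wild-type colon, from 351 to 1098 with a median of 783 in Apc tumours and from 699 to 1703 with a median of 924 in Apc/Tgif tumours. Both tumour groups lay below wild-type colon without overlap. Log2 fold changes were -1.77 (SE 0.27, limma adjusted p = 2.22e-05) and -1.12 (SE 0.27, limma adjusted p = 0.00165). Between genotypes it was 0.64 (SE 0.24, limma adjusted p = 0.0773), and the value passed in 4 of 37 settings, among them without Apc tumour 4 (0.75, limma adjusted p = 0.043) and without Apc/Tgif tumour 5 (0.76, limma adjusted p = 0.0335).

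Pdk3 (chromosome X, 93764607 to 93832201) separated the tumour genotypes. Its values were 929, 1022, 1056, 1099 and 854 in wild-type colon, from 795 to 1068 with a median of 867 in Apc tumours and from 380.0 to 767 with a median of 631 in Apc/Tgif tumours. All 7 Apc/Tgif tumours lay below all 12 other libraries. The log2 fold change was -0.12 (SE 0.15, limma adjusted p = 0.545) in Apc tumours, -0.79 (SE 0.15, limma adjusted p = 0.000254) in Apc/Tgif tumours and -0.67 (SE 0.14, limma adjusted p = 0.00248) between them, and in males alone the last was -0.29 (limma adjusted p = 0.131). Pdk4, the kinase induced by fasting and fatty acids, spread widely within groups, over 95.7 to 359 in wild-type colon, 33.1 to 740.4 in Apc tumours and 90.7 to 1413 in Apc/Tgif tumours. The 95% interval of its log2 fold change was wide, at -0.33 to 2.73 in Apc/Tgif tumours against wild-type colon. Pdk1, induced by low oxygen, had means of 2870.0, 3057 and 3004.

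The phosphatases moved in opposite directions. Pdp1 (chromosome 4, 11958184 to 11966452) had 693, 762, 764, 769.8 and 681 in wild-type colon, from 894 to 1582 with a median of 1139 in Apc tumours and from 1013 to 2197 with a median of 1215 in Apc/Tgif tumours. No tumour overlapped wild-type colon. It rose by log2 fold changes of 0.71 (SE 0.17, limma adjusted p = 0.00156) and 0.83 (SE 0.17, limma adjusted p = 0.000332), and the first was not called in females alone (0.76, limma adjusted p = 0.0542). Pdp2 had means of 1500.4, 894 and 953, and its log2 fold changes of -0.71 and -0.61 passed narrowly (limma adjusted p = 0.0248 and 0.0489). These calls were lost in 9 and in 21 of 37 settings, with values of -0.90 to -0.60 and -0.80 to -0.46 when 1 library was left out. In Apc tumours, wild-type replicates 1, 3 and 5 and Apc tumour 1 each decided the call. In Apc/Tgif tumours, wild-type replicates 1, 3 and 5, Apc tumours 3 to 6 and Apc/Tgif tumours 1, 2, 3 and 5 did. Neither phosphatase was called between genotypes, with intervals of -0.19 to 0.44 and -0.38 to 0.57.

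Acetyl-CoA carboxylase makes malonyl-CoA, the building block of fatty acids and an inhibitor of their entry into mitochondria. Acaca, the cytosolic form, was not called in any of the 3 comparisons, with means of 3414, 3516 and 3821 and an interval of -0.23 to 0.40 between genotypes. Of its 75-base stretches, 44.2% recur in the predicted gene Gm5182. Acacb (chromosome 5, 114146535 to 114250761), the form at the mitochondrial surface, fell stepwise over the 3 groups. It had 630.4, 745, 846, 619 and 380.4 in wild-type colon, from 126 to 448 with a median of 370.0 in Apc tumours and from 82.5 to 239 with a median of 128 in Apc/Tgif tumours. Apc tumours 2 and 3 lay within the Apc/Tgif range and the other 5 above it, and only Apc tumours 1, 4 and 7 reached the lowest wild-type value. The log2 fold change was -1.20 (SE 0.32, limma adjusted p = 0.00472) in Apc tumours, -2.24 (SE 0.32, limma adjusted p = 1.04e-05) in Apc/Tgif tumours and -1.04 (SE 0.29, limma adjusted p = 0.019) between genotypes. Without Apc tumours 2 and 3 the last was -1.50 (limma adjusted p = 0.000509) and the value in Apc tumours was not called (-0.68, limma adjusted p = 0.053). Nor was it called in males alone (-0.34, limma adjusted p = 0.418). The difference between genotypes was not called in females alone (-0.68, limma adjusted p = 0.27) or with array quality weights (-0.88, limma adjusted p = 0.0626). Apc tumours 1, 4 and 7, the highest of their group for Acacb, were also those with the lowest Hoxb13, and the part of tumour position was not tested.

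Malonyl-CoA decarboxylase (Mlycd, chromosome 8, 119394878 to 119411102), which turns malonyl-CoA back into acetyl-CoA, was lower in Apc tumours and not called in Apc/Tgif tumours. It had 948, 1015, 1037, 1414 and 1158 in wild-type colon, from 407 to 1012 with a median of 623 in Apc tumours and from 870.2 to 1213 with a median of 1016 in Apc/Tgif tumours. Only Apc tumour 5 reached the range of Apc/Tgif tumours or of wild-type colon. On the log2 scale the fold changes were -0.85 (SE 0.17, limma adjusted p = 0.000366) in Apc tumours, -0.17 (SE 0.17, limma adjusted p = 0.417) in Apc/Tgif tumours and 0.68 (SE 0.15, limma adjusted p = 0.00459) between genotypes. The last was 0.49 without Apc tumours 2 and 3 (limma adjusted p = 0.0317) and 0.36 in males alone (limma adjusted p = 0.2). With both sexes pooled, the carboxylase Acacb and this decarboxylase thus differed in opposite directions between the genotypes, while the carboxylase Acaca was not called. In the fit that gives each group and sex its own mean, the signs were the same but neither sex had both genes called. Females had 1.103 for Mlycd (limma adjusted p = 0.000853) and -0.68 for Acacb (limma adjusted p = 0.193). Males had 0.36 for Mlycd (limma adjusted p = 0.154) and -1.31 for Acacb (limma adjusted p = 0.0119).

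Mitochondrial thiolase Acat1 (chromosome 9, 53580522 to 53610382), which joins or splits acetyl units at acetoacetyl-CoA, had the smallest adjusted p of all members between genotypes. Its values were 6791, 6792, 7155, 7849 and 7124 in wild-type colon, from 2912 to 4273 with a median of 3548 in Apc tumours and from 4777 to 6621 with a median of 5397 in Apc/Tgif tumours. The 3 groups did not overlap. Its fold changes on the log2 scale were -1.06 (SE 0.10, limma adjusted p = 8.59e-08) in Apc tumours, -0.39 (SE 0.10, limma adjusted p = 0.00302) in Apc/Tgif tumours and 0.67 (SE 0.091, limma adjusted p = 7.48e-05) between them. The last was called in females alone (0.87, limma adjusted p = 0.00372), in males alone (0.52, limma adjusted p = 0.00715) and in all 37 alternative settings. The smaller fall in Apc/Tgif tumours was not called with equal totals, with epithelial centring or in females alone.

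Cytosolic thiolase Acat2 (chromosome 17, 12942890 to 12960747), which starts sterol synthesis, did not share this pattern. It had 1657, 1771, 1505, 2485 and 2941 in wild-type colon, from 1332 to 2900.1 with a median of 2401 in Apc tumours and from 1727 to 4056 with a median of 3146 in Apc/Tgif tumours, with all groups overlapping. Its rise in Apc/Tgif tumours, 0.55 (SE 0.22, limma adjusted p = 0.0404), was lost in 12 of 37 settings, with values of 0.44 to 0.70 when 1 library was left out. Each of wild-type replicates 1, 2 and 3 and Apc/Tgif tumours 1, 3, 4 and 5 decided it. Acat3 lies beside it on chromosome 17 as a near-copy, and 41.6% of its 75-base stretches recur in Acat2. It had 10.3, 34.6 and 21.3 normalized counts on average. It reached 10 in 3 wild-type libraries, 7 Apc tumours and 6 Apc/Tgif tumours, so the filter on low values kept it through its level in tumours. It was higher in both tumour groups by 1.92 and 1.18 on the log2 scale, a direction which the filter favoured. Reads of the pair cannot be parted with certainty. The call in Apc/Tgif tumours was lost without wild-type replicate 1 or 4, with values of 0.85 to 1.47 when 1 library was left out.

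The ketone body enzymes Bdh1 and Oxct1 were lower in both tumour groups. Bdh1 (chromosome 16, 31422280 to 31458901), which interconverts hydroxybutyrate and acetoacetate in mitochondria, had 5235, 5259.8, 5101, 6164 and 6077 in wild-type colon, from 1313 to 3029.7 with a median of 2842 in Apc tumours and from 1656 to 3798 with a median of 2873 in Apc/Tgif tumours. Its log2 fold changes were -1.37 (SE 0.19, limma adjusted p = 9.87e-06) and -1.07 (SE 0.19, limma adjusted p = 0.000127). Oxct1 (chromosome 15, 4026383 to 4155344), which activates acetoacetate with coenzyme A taken from succinyl-CoA, had 18613, 16048, 18722, 16399 and 16007 in wild-type colon. It ran from 6033 to 8363 with a median of 6637 in Apc tumours and from 4124 to 9818 with a median of 8724 in Apc/Tgif tumours, with log2 fold changes of -1.34 (SE 0.16, limma adjusted p = 1.87e-06) and -1.13 (SE 0.16, limma adjusted p = 1.12e-05). For both genes every tumour lay below every wild-type colon. Neither passed between genotypes (0.30 and 0.21). Without Apc/Tgif tumour 2, the lowest of its group, Oxct1 passed at 0.37.

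Bdh2 (chromosome 3, 135281221 to 135304426), a cytosolic hydroxybutyrate dehydrogenase, was scarce in all groups and lowest in Apc/Tgif tumours. It had 51.4, 30.2, 30.1, 27.1 and 25.5 in wild-type colon, from 11.8 to 41.9 with a median of 29 in Apc tumours and from 4.55 to 17.0 with a median of 8.66 in Apc/Tgif tumours. Apc tumour 2 was the only one of its group within the Apc/Tgif range. Log2 fold changes were -0.30 (SE 0.36, limma adjusted p = 0.524) in Apc tumours, -1.64 (SE 0.36, limma adjusted p = 0.000885) in Apc/Tgif tumours and -1.34 (SE 0.33, limma adjusted p = 0.00803) between genotypes, the last being -0.87 in females alone (limma adjusted p = 0.232). At 4 of its 19 libraries Bdh2 lay below 10 normalized counts, all of them Apc/Tgif tumours, where precision is limited. The filter on low values thus kept it through the other groups and favoured a lower value in Apc/Tgif tumours.

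Carnitine acetyltransferase (Crat) moves acetyl groups between coenzyme A and carnitine so that they can cross the mitochondrial membrane. It went from 2389 ± 206 (SD, n = 5) to 1324 ± 223 and 1178 ± 196 (SD, n = 7 each), without overlap with wild-type colon, at log2 fold changes of -0.91 and -1.08. Slc33a1, the importer of acetyl-CoA into the endoplasmic reticulum, had 2023, 1671 and 1703. Its calls in Apc tumours (-0.27) and Apc/Tgif tumours (-0.25) were lost in 12 and 26 of 37 settings, and the first also turned to 0.01 with epithelial centring. When 1 library was left out the values were -0.33 to -0.22 and -0.31 to -0.17. Wild-type replicates 1 and 3 and Apc tumours 2, 3 and 5 each decided the first call, and 15 of the 19 libraries the second. Neither gene was called between genotypes. Of the 75-base stretches of Slc33a1, 30% also lie antisense in transcripts of Gm26850.

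Acyl-CoA thioesterases split acyl-CoA into free acid and coenzyme A, and the 9 members divided in direction. In Apc tumours 3 were higher and 5 lower (all genes 23.9% and 25.2%), in Apc/Tgif tumours 3 were higher and 4 lower (all genes 24.8% and 25.5%), and between genotypes 2 were lower and none higher (all genes 8.76% and 7.88%). The higher ones include Acot12, which the filter on low values kept through its level in tumours. Acot1 (chromosome 12, 84009490 to 84018371), the cytosolic long-chain enzyme, had 184, 142, 264, 259.9 and 178 in wild-type colon, from 473 to 768 with a median of 518 in Apc tumours and from 331 to 1199 with a median of 635 in Apc/Tgif tumours. All 14 tumours lay above wild-type colon, and log2 fold changes were 1.42 (SE 0.23, limma adjusted p = 3.72e-05) and 1.49 (SE 0.23, limma adjusted p = 1.79e-05). Its mitochondrial neighbour Acot2, with which it shares 19.4% of its 75-base stretches, had means of 229, 199 and 189 and was not called. Acot9 (chromosome X, 155262443 to 155297654), a mitochondrial enzyme, had 898, 907, 1097, 1017 and 763 in wild-type colon, from 1431 to 1832 with a median of 1691 in Apc tumours and from 1044 to 1619.9 with a median of 1426 in Apc/Tgif tumours. Only Apc/Tgif tumour 1 reached the wild-type range, and log2 fold changes were 0.85 (SE 0.12, limma adjusted p = 8.18e-06) and 0.55 (SE 0.12, limma adjusted p = 0.000716), the second not called in females alone (0.43, limma adjusted p = 0.0559).

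Acot12, the thioesterase that hydrolyses acetyl-CoA itself in the cytosol, was nearly absent from wild-type colon and present in tumours. It ran from 2.28 to 18.3 in wild-type colon, from 45.3 to 162 with a median of 75.1 in Apc tumours and from 1.04 to 134 with a median of 82.6 in Apc/Tgif tumours. Only 1 wild-type library reached 10 normalized counts, so it passed the filter through the tumours and had to differ. Apc/Tgif tumour 5, at 1.04, lay below every wild-type library and the other 6 lay above all of them. Its fold changes on the log2 scale were 3.44 (SE 0.79, limma adjusted p = 0.00141) and 2.93 (SE 0.79, limma adjusted p = 0.00449), and in males alone the second was not called.

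The thioesterases that were lower between genotypes were Acot4 and Acot7. Acot7 (chromosome 4, 152178134 to 152271855), a cytosolic long-chain enzyme, had 2982, 3194, 2692, 4002 and 3338 in wild-type colon, from 1769.7 to 2576 with a median of 2103 in Apc tumours and from 1137 to 2105 with a median of 1506 in Apc/Tgif tumours. The tumour ranges overlapped, and both lay below wild-type colon. On the log2 scale the fold changes were -0.66 (SE 0.14, limma adjusted p = 0.000956), -1.11 (SE 0.14, limma adjusted p = 2.98e-06) and, between genotypes, -0.45 (SE 0.13, limma adjusted p = 0.0219). The last was not called without Apc tumour 1 (-0.39, limma adjusted p = 0.0557), without Apc tumours 2 and 3 (-0.40, limma adjusted p = 0.0883) or in males alone (-0.25, limma adjusted p = 0.276). That in Apc tumours was not called with epithelial centring (-0.37) or in females alone (-0.36).

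Acot4 (chromosome 12, 84038379 to 84048601), a peroxisomal enzyme, had 213, 193, 169, 209.8 and 203 in wild-type colon, from 34.99 to 155 with a median of 135 in Apc tumours and from 37.4 to 66.3 with a median of 53.2 in Apc/Tgif tumours. Apc tumours 2 and 3, at 46.1 and 34.99, were as low as the Apc/Tgif tumours and the other 5 lay above all of them. Log2 fold changes were -1.16 (SE 0.30, limma adjusted p = 0.00361) in Apc tumours and -1.98 (SE 0.30, limma adjusted p = 1.97e-05) in Apc/Tgif tumours, the first not called in males alone (-0.71, limma adjusted p = 0.0807). Between genotypes it was -0.82 (SE 0.27, limma adjusted p = 0.0465), and this call was lost in 22 of 37 settings. When 1 library was left out the values ran from -1.02 to -0.66 (limma adjusted p up to 0.109), and leaving out any library other than Apc tumours 2 and 3 and Apc/Tgif tumours 1 and 2 lost the call. Without Apc tumours 2 and 3 it was -1.28 (limma adjusted p = 0.000377). Apc tumours 1, 4 and 7, low in Hoxb13, were again the highest of their group. Of the rest, Acot8, the peroxisomal enzyme, had -1.02 and -0.78 against wild-type colon, and Acot13 had -0.37 and -0.43, all 4 called. The second call of Acot8 was lost in females alone (-0.47, limma adjusted p = 0.107). Those of Acot13 were lost in 6 and 4 of 37 settings, among them epithelial centring (-0.09 and -0.19). Acot11 was called in Apc tumours at -0.73, lost in 6 of 37 settings, and not in Apc/Tgif tumours at -0.37, and the difference between genotypes was not called (0.36, limma adjusted p = 0.276) except in 3 of 37 settings.

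**Figure D3:**
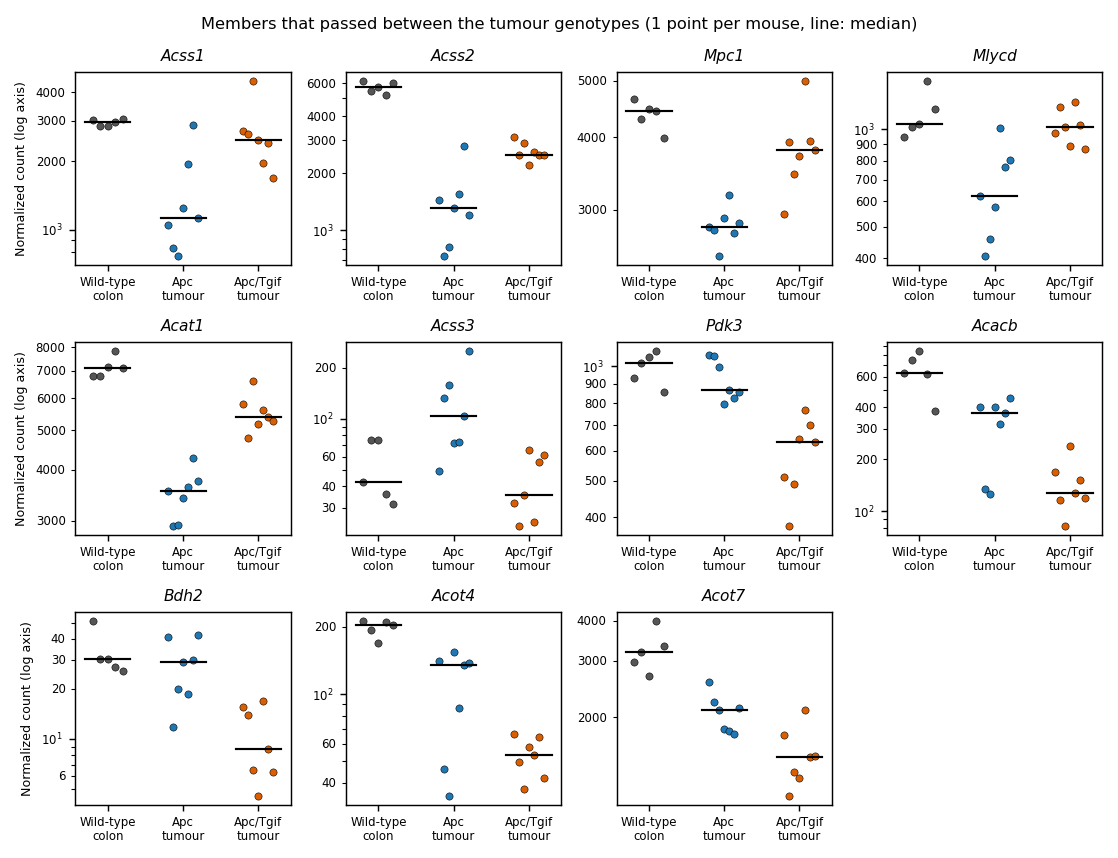
Normalized counts, on a log axis, of the 11 members called between the tumour genotypes, with 1 point per mouse and a line at the group median. Acss1, Acss2, Mpc1, Mlycd and Acat1 have higher medians in Apc/Tgif than in Apc tumours. The other 6 have their lowest medians in Apc/Tgif tumours, and Pdk3 and Acat1 separate the tumour genotypes without overlap.

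All 5 members higher in Apc/Tgif than in Apc tumours (Acss1, Acss2, Mpc1, Mlycd and Acat1) were among the 24 lower in Apc tumours than in wild-type colon. Of the 6 lower members, Acacb, Acot4 and Acot7 were also among those 24, Acss3 was higher in Apc tumours than in wild-type colon, and Pdk3 and Bdh2 were not called there. These comparisons share the Apc tumours, which enter them with opposite sign, so such an overlap can arise for any set of genes. The matching share over all genes is not given here. The relation is therefore a description and is not shown to be particular to the members. Beside these differences, goblet cell markers were lower in Apc/Tgif tumours in 9 of 10 cases, with sums of 76764 to 299324 in Apc and 21496 to 79281 in Apc/Tgif tumours, and colonocyte markers in 6 of 10. Stem and crypt base markers were higher in 5 of 10, with sums of 34353 to 56254 and 56954 to 71604, and macrophage markers in 4 of 6, with sums of 7613 to 20541 and 10573 to 17530. Sums of 10 enteric neuron and glia markers, of which 2 were lower, were 811 to 1739 and 233 to 667. None of 10 pan-epithelial, 10 smooth muscle, 6 adipocyte or 5 distal colon markers was called, and their sums overlapped between the genotypes. What part the cell types that moved had in the members' differences was not tested.

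The effect of genotype differed between the sexes for 7 of 40 members (17.5%), where 23.6% of all genes tested did. The quantity tested is the difference between Apc/Tgif and Apc tumours in males, less that in females. No member had such a difference in the comparisons with wild-type colon, where 0.0108% (Apc) and 3.4% (Apc/Tgif) of all genes did. The 7 were Acss1 (-1.52, limma adjusted p = 0.00862), Acss2 (-0.97, adjusted p = 0.0475), Pdk1 (-1.35, adjusted p = 0.00233), Pdk2 (-1.88, adjusted p = 0.000291), Pdk3 (0.90, adjusted p = 0.00315), Mlycd (-0.74, adjusted p = 0.0477) and Acot2 (-1.26, adjusted p = 0.0108).

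Pdk1 went opposite ways. Female Apc tumours had 2104, 2345 and 2877 and female Apc/Tgif tumours 3139, 5376 and 3565, a log2 fold change of 0.69 (limma adjusted p = 0.016). Male Apc tumours had 3759.7, 3042, 3609.7 and 3662 and male Apc/Tgif tumours 2561, 1785, 2195 and 2410.4, a log2 fold change of -0.66 (limma adjusted p = 0.0136). The genotypes did not overlap in either sex. For Pdk2 the female tumours held 425, 452 and 351 in Apc and 1185, 1703 and 1188 in Apc/Tgif, a log2 fold change of 1.71 (limma adjusted p = 1.4e-05). Male tumours overlapped, at 783 to 1098 and 699 to 924, with -0.16, not called.

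Acss1 rose by 1.85 in females (limma adjusted p = 0.000263) and Acss2 by 1.57 (limma adjusted p = 0.000466), and in males the values were 0.33 and 0.60, not called. Mlycd rose by 1.103 in females (limma adjusted p = 0.000853), against 0.36 in males. Pdk3, which lies on the X chromosome, fell by 1.19 in females (limma adjusted p = 3.4e-05), against -0.29 in males. Acot2 rose by 0.69 in females (limma adjusted p = 0.0434) and had -0.57 in males (limma adjusted p = 0.0657). A fit on the male libraries alone called Acot2 lower at this value (limma adjusted p = 0.0491). Apc tumours 2 and 3 make up most of the female Apc group. Without them, when 1 female Apc tumour is left and is assumed to vary like the other groups, 2 of the 7 differences were called, Pdk1 and Pdk2 (-1.82 for Pdk2, limma adjusted p = 0.014), and 566 of all genes in place of 4352. Those of Acss2 and Mlycd were also lost in 16 of 19 settings that left out 1 library.

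**Figure D4:**
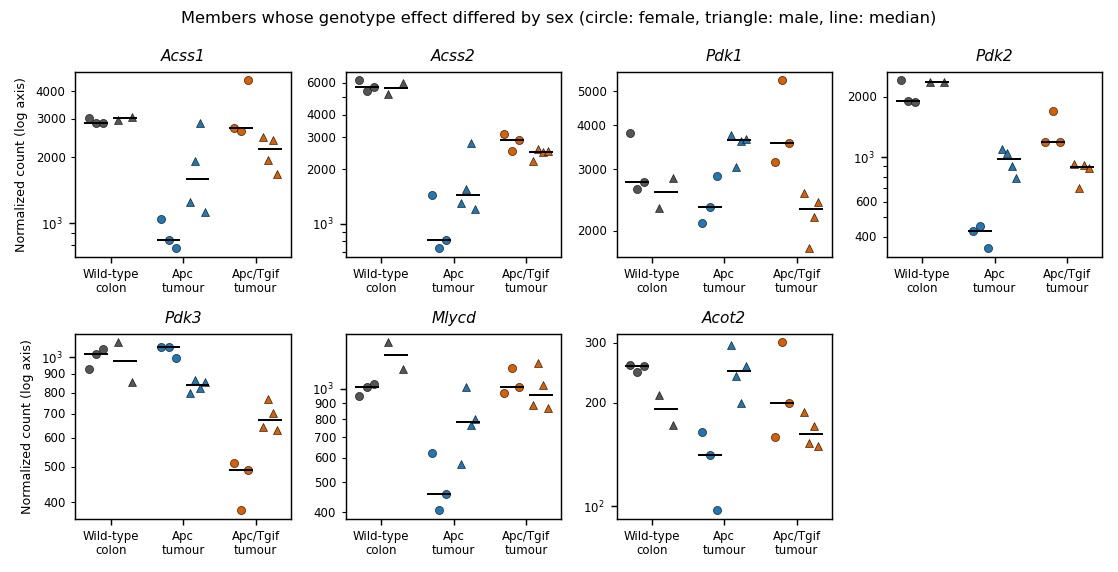
Normalized counts, on a log axis, of the 7 members whose genotype effect differed between the sexes, with circles for females, triangles for males and a line at each median. In Pdk1 the female tumours go up and the male tumours down from Apc to Apc/Tgif, and in Pdk2 the 3 female Apc tumours lie below all other libraries.

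Pairs of members from 1 route or family were compared across tumours of 1 genotype. The family held 10 relations, 5 pairs in each genotype over 7 tumours, tested by exact permutation (two-sided) on log2 values. Only Acly with Slc25a1 in Apc/Tgif tumours passed, with Pearson's r = 0.87 (exact permutation p = 0.00179, adjusted p over the 10 relations = 0.0179). Spearman's rho was 0.893 (exact permutation p = 0.0123, adjusted p = 0.123), and r without the 2 tumours farthest from the median Acly value was 0.856. In Apc tumours r of this pair was 0.0878 (exact permutation p = 0.861). Whether the genotypes differ in this relation was not tested. Acly with Acaca in Apc/Tgif tumours had r = 0.676, which fell to 0.00878 without the 2 farthest tumours (exact permutation p = 0.0875 with all 7). This pair passed at other scalings, with r = 0.807 at equal totals and 0.791 with epithelial centring. The other pairs were Acly with Acss2, Acot1 with Acot2 and Pdk4 with Acot2, and none passed.

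Levels of different genes are comparable only per length of transcript. By normalized counts per 1000 bases of the longest coding transcript, Cs was the highest member in all 3 groups, at 10200.0 in wild-type colon. Acly ranked 2 in wild-type colon, 5 in Apc and 7 in Apc/Tgif tumours. Pdk2 was the most abundant kinase in wild-type colon, at 977 per 1000 bases against 554 for Pdk1. In Apc tumours the order was reversed, at 322 against 589.6, and in Apc/Tgif tumours the levels were 477 and 579.5. The cytosolic carboxylase Acaca exceeded Acacb in every group, at 359 against 73.3 in wild-type colon and 402 against 16.3 in Apc/Tgif tumours.

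Genes that supply or use the same pool were read from lists on the pathway. Of 22 citric acid cycle genes, 16 were lower and 1 higher in Apc tumours and 17 lower and 1 higher in Apc/Tgif tumours. Of all genes 25.2% and 25.5% were lower and 23.9% and 24.8% higher. Pcx, the pyruvate carboxylase that feeds oxaloacetate to citrate synthase, had means of 6106, 1494 and 1812 in wild-type colon, Apc and Apc/Tgif tumours, a log2 fold change of -2.13 (limma adjusted p = 2.43e-07) in Apc tumours. Suclg1, a subunit of succinate-CoA ligase, had 9299, 4936 and 4917, with -0.94 (limma adjusted p = 3.82e-07). The gene that rose was Idh1, the cytosolic isocitrate dehydrogenase, with 6573, 13430 and 19770 and 1.56 (limma adjusted p = 1.12e-08) in Apc/Tgif tumours. Idh1 was also the only gene of the list called between genotypes, at 0.54 (limma adjusted p = 0.00396). That is 4.55% of the list, against 16.6% of all genes.

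Genes for uptake and activation of butyrate and acetate were mostly lower in both tumour groups. Of 9 genes 7 were lower and 1 higher against wild-type colon in either tumour group (all genes 25.2% and 25.5% lower). Between genotypes 3 of 9 were lower, Slc16a1, Slc5a8 and Acsm3, and 6 were not called (all genes 8.76% lower). Slc16a1, a monocarboxylate transporter, had means of 14030, 4584 and 2324, and between genotypes -0.94 (limma adjusted p = 0.00031). Slc5a8, a sodium-coupled butyrate transporter, had 19020, 2458 and 938 and -1.35 (limma adjusted p = 0.0092). Acsm3, a medium-chain acyl-CoA synthetase, had 11700, 1890 and 1094 and -0.77 (limma adjusted p = 0.0157). Slc16a3, the transporter known for lactate export, was the one that rose against wild-type colon, with 289, 4614 and 3042 and 3.97 (limma adjusted p = 1.76e-10) in Apc tumours. The acetate-activating Acss1 and Acss2 were higher in Apc/Tgif than in Apc tumours while Slc16a1 and Slc5a8 were lower.

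Hadha and Hadhb, the subunits of the mitochondrial trifunctional protein of fatty acid oxidation, were lower in both tumour groups. Hadha had a log2 fold change of -0.66 in Apc tumours (limma adjusted p = 5.17e-06), and Hadhb was higher between genotypes at 0.31 (limma adjusted p = 0.0276). Of 12 genes of coenzyme A synthesis and import, 2 were higher and 4 lower in Apc tumours, 3 higher and 4 lower in Apc/Tgif tumours, and 1 each way between genotypes. These are 50% and 58.3% called, near the 49.1% and 50.3% of all genes, and 16.7% between genotypes against 16.6%. Those higher in both tumour groups were Coasy and Vnn3, and those lower in both were Pank1, Pank3 and Slc5a6, with Slc25a42 also called lower in Apc tumours and Slc25a16 higher and Pank2 lower in Apc/Tgif tumours. Slc25a16, a mitochondrial carrier linked to coenzyme A, was higher between genotypes (1396, 1211 and 1987, 0.72, limma adjusted p = 0.000306) and Vnn1, a pantetheinase, lower (30.9, 96.5 and 15.1, -2.11, limma adjusted p = 0.00348). Slc5a6, the vitamin transporter for pantothenate and biotin, fell against wild-type colon (1383, 499.8 and 437, -1.52, limma adjusted p = 1.94e-05 in Apc tumours).

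Of 11 partners and regulators of the carboxylases, 2 were higher and 2 lower in Apc tumours, 3 higher and 1 lower in Apc/Tgif tumours, and 1 each way between genotypes. The 36.4% called in each tumour group lay below the 49.1% and 50.3% of all genes, and the 18.2% between genotypes near 16.6%. Hlcs and Mcat were the higher genes in both tumour groups, with Prkab1 added in Apc/Tgif tumours, and Thrsp was called lower in Apc tumours. Prkaa2, a catalytic subunit of the AMP-activated kinase that phosphorylates and inhibits the carboxylases, fell in both tumour groups and further in Apc/Tgif tumours (6809, 1933 and 734, -1.25, limma adjusted p = 0.00542 between genotypes). Prkab1, a regulatory subunit, was higher between genotypes (0.55, limma adjusted p = 0.045). Hlcs, which attaches biotin to the carboxylases, rose in both tumour groups (461, 756 and 792, 0.76, limma adjusted p = 1.13e-05 in Apc tumours). Of 11 acetylation and deacetylation genes, 3 were higher and 5 lower in Apc tumours, 3 higher and 2 lower in Apc/Tgif tumours, and only Kat2b, an acetyltransferase, differed between genotypes (2520, 1638 and 2278, 0.46, limma adjusted p = 0.0166). These are 72.7% and 45.5% called against 49.1% and 50.3% of all genes, and 9.09% between genotypes against 16.6%. Kat2a, Kat5 and Naa10 were higher in both tumour groups, Nat8l and Sirt3 lower in both, and Kat2b, Ep300 and Sirt5 were called lower in Apc tumours. Sirt3, the mitochondrial deacetylase, fell in both tumour groups (507, 262 and 239, -0.98, limma adjusted p = 9.62e-05 in Apc tumours).

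None of 5 genes of lipoic acid attachment and complex assembly was called in any of the 3 comparisons, where 49.1%, 50.3% and 16.6% of all genes were. Of 8 further thioesterases 5 passed the filter, with 2 higher and 3 lower in Apc tumours, 1 higher and 2 lower in Apc/Tgif tumours, and 1 each way between genotypes (all genes 49.1%, 50.3% and 16.6% called). Them6 was higher and Acot6 and Baat were lower in both tumour groups, and in Apc tumours Acot5 was higher and Them4 lower. Them4 was higher between genotypes (559.5, 385 and 569, 0.54, limma adjusted p = 0.00889). Acot5 had a mean of 12.7 in Apc tumours and was listed at 0 in all 7 Apc/Tgif tumours, so no fold is given. It passed the filter on low values only through the other groups, so its calls are no evidence of a difference.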

How the data were processed

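Poly-A RNA from 19 mouse colon libraries was read single-end for 75 bases, as the labels' protocols state. The deposited table holds normalized counts per gene symbol, a signal the authors scaled between libraries. Per the submitters' processing notes, Salmon and DESeq2 were used with GRCm38 or mm10, with versions, annotation and strand setting not given in the sources used here. Between 83.1% and 86.7% of low values were whole multiples of 1 library step within a tolerance of 0.1 steps, so whole reads were not recovered, and the planned count test was replaced by its stated substitute. The steps put the depth at about 28600000 to 49100000 counts, so a normalized count of 10 is roughly 10 reads, and values near it carry counting error.

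Genes with at least 10 normalized counts in at least 5 libraries were tested on the scale log2(value + 1) with limma 3.58.1 (R 4.3.3), using robust empirical Bayes with a trend on mean level. All 19 libraries entered 1 fit with group and sex. P-values are two-sided and Benjamini-Hochberg adjusted over the 18445 genes. Fold changes understate those of low genes. Sex differences, and the effects within each sex given with them, come from a second fit that gives each group and sex its own mean. Values said to be in males alone or females alone come from fits on the libraries of that sex only. Marker lists of up to 10 genes per cell type were given as counts and as sums per library. Read sharing was taken from 75-base stretches of GENCODE transcripts. The fit was tested on simulated data.

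The members and lists were chosen with earlier results of these data known. Members were given in full where they passed between the tumour genotypes, or were among the 4 highest or 4 lowest called against wild-type colon with a mean of at least 100. Of each pathway list, genes called between genotypes and up to 3 with the smallest p were named. Further genes named from those lists were chosen after their values were seen. Alternatives were other pseudocounts, filters, scalings, model terms, and left-out libraries. No protein comparison was made. Results of 1 pathway list are not reported here.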

Additional observations from a re-analysis of the deposited data

Results flagged for a closer look

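In 14 of 120 sets of values of 1 member in 1 group, a single library stood apart from the others by Dixon's criterion, which chance meets in about 1 set of 20. Apc/Tgif tumour 2, a female, accounted for 10 of the 14. It was the lowest of its group for Aacs (1222 normalized counts, against 2988 in the next tumour), Acly (5259.84), Dlat (2239.95), Oxct1 (4124), Crat (752), Slc33a1 (1329) and Acot11 (802). It was the highest for Pdha1 (12314), Pdp1 (2197) and Acot2 (301). The other 4 were Dld in Apc tumour 1 (5364), Acat2 in Apc tumour 4 (1332), Bdh2 in wild-type replicate 1 (51.4) and Acot12 in Apc/Tgif tumour 5 (1.04). Without Apc/Tgif tumour 2, Oxct1 (0.37) and Acot11 (0.58) passed between the genotypes and no member lost its call there.

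The difference between Apc/Tgif and Apc tumours was not the same in males and females for 7 members, by a limma test of the male effect minus the female effect. The values were -1.52 for Acss1, -0.97 for Acss2, -1.35 for Pdk1, -1.88 for Pdk2, 0.90 for Pdk3, -0.74 for Mlycd and -1.26 for Acot2. Of all genes tested 23.6% had such a difference, against 17.5% of the members.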

How the results depend on the processing

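Of the 11 calls between the tumour genotypes, Acat1 held in all 37 alternative settings, and the other 10 were each lost in at least 1. Leaving out 1 library gave 5 to 6 higher and 21 to 24 lower members in Apc tumours, 4 to 6 and 20 to 22 in Apc/Tgif tumours, and 5 to 7 and 4 to 6 between genotypes. With a mean of at least 100, fewer genes were tested: 3 members were higher and 3088 genes lower in Apc tumours, and 3117 genes lower in Apc/Tgif tumours. Centred on pan-epithelial genes, 15 members and 2991 genes were lower in Apc tumours and 942 genes higher between genotypes, Pdhb (0.0415) and Slc33a1 (0.012) turned direction in Apc tumours, and Acly with Acaca had r = 0.791 (0.807 at equal totals). Why scaling moved them was not tested. Males alone gave 3039 genes lower in Apc tumours, and females alone 3 members lower and 2230 genes higher between genotypes, both from fewer mice. Genes with a sex difference numbered 2 to 40, 5 to 1801 and 2731 to 4909 when 1 library was left out (Apc, Apc/Tgif, and between genotypes), and 0, 372 and 566, with 2 members, without Apc tumours 2 and 3. The comparisons on sexes alone, without the Rn45s libraries, without Apc tumours 2 and 3 and with totals without Rn45s were chosen after seeing the data. No paired analysis was possible because each library came from a different mouse and the labels match no mice across the groups. Values near 10 normalized counts (Acot12, Acat3, Bdh2) are limited by depth.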
